A study of Mus musculus with 12 samples.

Results

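YAP1 and TAZ are transcriptional coactivators that carry no DNA-binding domain of their own and reach DNA through the TEAD transcription factors. The Hippo kinase cascade phosphorylates both coactivators and keeps them in the cytoplasm, so much of their regulation takes place on the protein and is not read by an RNA count. Ankrd1, Amotl2, Lats2 and Ajuba are genes whose transcription commonly rises when YAP or TAZ is active, and LATS2 and AMOTL2 also restrain YAP, which makes them feedback inhibitors. In mesangial cells, the contractile pericyte-like cells of the glomerulus, TGF-β drives matrix production and a contractile program, both of which are linked to YAP and TAZ in many fibrotic settings.

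RNA-seq gene counts were examined for 10 genes of this system, which were chosen by symbol, out of 25230 genes listed in the count tables. They are the coactivator genes Yap1 and Wwtr1 (which encodes TAZ), the transcription factor genes Tead1, Tead2, Tead3 and Tead4, and the 4 target genes named above. Primary mouse mesangial cells (MMC) came from wild-type C57BL/6J mice (WT) or from a line of mice on the same background (lncMGC-KO5, here KO) in which Cas9 and a pair of guide RNAs had made a small deletion close to the start site of the long non-coding RNA lncMGC, the host transcript of a microRNA cluster. Cells of each genotype were serum depleted, and were either left so (SD) or given TGF-β at 10 ng/ml for 24 h, which made 4 groups of 3 libraries each, named WT-SD and WT-TGF, and likewise KO-SD and KO-TGF. All KO libraries came from 1 mouse line, lncMGC was not analysed here so the label KO could not be checked in the counts, and although the study calls the samples of a group independent, the sources used here do not say whether they came from separate mice or cultures. A p-value therefore measures the spread between these libraries, which may be technical, and genotype and culture cannot be told apart.

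The libraries held 19898050 to 22827706 gene counts, and the 10 genes together took 48920 to 58571 of them. Replicates of a group lay close together, with a biological coefficient of variation of 0.0268 over all genes, so differences of a few percent passed the test for highly expressed genes. With and without TGF-β, libraries did not overlap for 75.1% of all genes tested in WT and 74.4% in KO. Between genotypes this held for 59.2% in SD and 61.5% under TGF-β. Of the 10 genes it held for 7, 8, 7 and 8 in the same order, so groups without overlap were common among all genes. The labelled cell type was checked against markers. Pdgfrb and the contractile genes Acta2 and Tagln were abundant, with group means of at least 288 CPM for Pdgfrb, whereas Itga8, a defining mesangial integrin, reached a group mean of no more than 3.05 CPM. The summed level of 12 mesangial and smooth muscle markers ran from 2827 to 2962 CPM in WT-SD, 4963 to 5142 in KO-SD, 5881 to 6032 in WT-TGF and 10773 to 10859 in KO-TGF. Most of that sum was Acta2 and Tagln, with means of 1567 and 714 CPM in WT-SD and 6288 and 3915 in KO-TGF, and other genes of the list went the other way. Des (desmin) averaged 7.67 CPM in WT-SD and 0.25 in KO-TGF, Pdgfra 3.54 and 0.21, and Itga8 2.89 and 0.64. Summed macrophage markers (15 genes) were low and lower still in KO, at 38.8 to 42.3 CPM in WT-SD, 21.2 to 25.5 in WT-TGF, 8.22 to 10.0 in KO-SD and 2.35 to 2.73 in KO-TGF. Of the 15 genes, 8 were at 0 in all libraries of KO-SD and 6 in those of KO-TGF, against 0 in WT-SD and 1 in WT-TGF. Summed podocyte markers (8 genes) were 521 to 532 CPM in WT-SD and 464 to 483 in WT-TGF against 222 to 232 in KO-SD and 205 to 220.2 in KO-TGF. In bulk RNA, fewer cells of a type and less RNA per cell cannot be told apart, and the part of these marker levels in the results that follow was not tested.

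TEAD proteins bind a short element whose core is GGAATG. That core, on either strand, was searched in RefSeq promoter windows of the mouse build GRCm38.p6 (250 bases before to 50 after a start site), and 8 of the 10 genes had a window. It was present in the windows of 7 of these 8 genes, Tead2 being the exception, and in 9 of their 12 windows, whereas 16.6% of 27025 genes and 14.7% of 32851 windows held it. Windows of a gene can overlap, and the 2 windows of Wwtr1 held the same core. Among the other genes on a list of YAP/TAZ targets it was present in 4 of the 12 with a window. Such a match is a description of the letters and not evidence of binding. The stretches around the cores are shown because they let the members be compared at the site their factors recognise. They are written on the gene's strand with the core in capitals, and those of Ankrd1 and Amotl2 are kept short where another annotated exon covers them. The match of Lats2, just after its start site, and those in a second window of Tead3 are not shown.
Ankrd1, chr19:36120037-36120066, minus strand: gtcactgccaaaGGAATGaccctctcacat
Ankrd1, chr19:36119950-36119979, minus strand: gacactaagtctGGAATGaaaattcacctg
Amotl2, chr9:102717727-102717756, plus strand: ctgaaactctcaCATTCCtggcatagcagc
Ajuba, chr14:54577773-54577894, minus strand: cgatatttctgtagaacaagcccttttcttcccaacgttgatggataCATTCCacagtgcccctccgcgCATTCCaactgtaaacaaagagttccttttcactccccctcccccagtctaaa
Yap1, chr9:8004685-8004784, minus strand: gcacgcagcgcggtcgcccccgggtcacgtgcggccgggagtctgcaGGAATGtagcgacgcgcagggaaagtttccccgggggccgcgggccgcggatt
Wwtr1, chr3:57575994-57576093, minus strand: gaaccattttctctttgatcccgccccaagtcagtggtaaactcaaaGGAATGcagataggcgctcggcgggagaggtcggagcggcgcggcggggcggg
Tead3, chr17:28350935-28351034, minus strand: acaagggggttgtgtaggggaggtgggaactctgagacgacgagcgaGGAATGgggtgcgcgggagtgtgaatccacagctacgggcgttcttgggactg
Ankrd1 held a pair of cores, 210 and 123 bases before its start site, and Ajuba held a pair at 186 and 164 bases. The second window of Tead3, at another annotated start site, held 3, of which 1 was 123 and 1 was 114 bases before that site and 1 just after it. At least 2 matches were found in 1.36% of all windows.

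In the RefSeq annotation of GRCm38.p6, Yap1 spans chr9:7931999-8004638, Wwtr1 chr3:57455644-57575910, Tead1 chr7:112679356-112906784, Tead2 chr7:45215792-45233468, Tead3 chr17:28331671-28350805 and Tead4 chr6:128227143-128300813. The targets span chr19:36111965-36119844 (Ankrd1), chr9:102717091-102733418 (Amotl2), chr14:57689662-57746212 (Lats2) and chr14:54567469-54577661 (Ajuba). The counts cover all exons of a gene, UTRs included.

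Per length of exon, the target genes Ankrd1 and Amotl2 had the highest means over the 12 libraries of the 10 genes, at 109.7 and 103 RPKM (read counts scaled to exon length and library size). The mean of Ankrd1 rests on the treated groups, where it stood at 109 RPKM in WT-TGF and 209.7 in KO-TGF. In WT-SD (52.9 RPKM) and KO-SD (66.8) it was below both Amotl2 (115 and 102) and Wwtr1 (66.5 and 72.7). The order of genes given here rests on the union of exons as the length. The longest transcript of Ankrd1 has 2020 bases against a union of 2886, and that of Wwtr1 4697 against 4779. With the longest transcript, Ankrd1 would stand above Wwtr1 in WT-SD and KO-SD, and Tead1 above Ajuba over all libraries. Over the 12 libraries Wwtr1 averaged 81.5 RPKM, followed by Ajuba at 47.1, Tead1 at 39.1, Yap1 at 25.0, Lats2 at 24.6, Tead2 at 18.5 and Tead3 at 7.88. Tead4 stood at 1.21 RPKM, below all but 10.0% of the genes tested. All 10 genes passed the filter on low values (RPKM above 1 in at least 1 library), which left 11527 genes for the test.

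TGF-β changed most of the 10 genes in WT cells, but by small amounts other than for Ankrd1, the other log2 changes lying between -0.18 and 0.52. By edgeR's quasi-likelihood test, 5 genes rose (Wwtr1, Tead1, Tead2, Ankrd1 and Ajuba), 3 fell (Yap1, Amotl2 and Lats2) and Tead3 and Tead4 did not pass an adjusted p of 0.05. That is 8 of 10 genes called, in a comparison where 72.4% of all genes tested were called (36.0% higher and 36.4% lower), so the share of the 10 genes was near the background. With a fold change above 2 as well, Ankrd1 was the 1 gene called, against 9.93% of all genes. In KO cells 8 genes were again called, against 74.1% of all genes (34.9% higher and 39.1% lower). There the 5 that rose were Yap1, Wwtr1, Tead1, Ankrd1 and Ajuba, the 3 that fell were Tead2, Amotl2 and Lats2, and Ankrd1 was again the 1 gene past a fold change of 2, against 13.5% of all genes. The median log2 change of the 10 genes was 0.06 in WT and 0.18 in KO, beside -0.0049 and -0.03 over all genes. Scaling by library size in place of TMM shifted the median log2 change of all genes by -0.16 in WT and -0.20 in KO, and with it the calls became 3 higher and 4 lower in each genotype. In WT the calls of Tead2 and Ajuba were then lost, in KO those of Yap1 and Ajuba, and Tead3 was called lower in both (-0.17 with adjusted p = 0.0047 in WT, -0.16 with adjusted p = 0.0081 in KO).

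**Figure D1:**
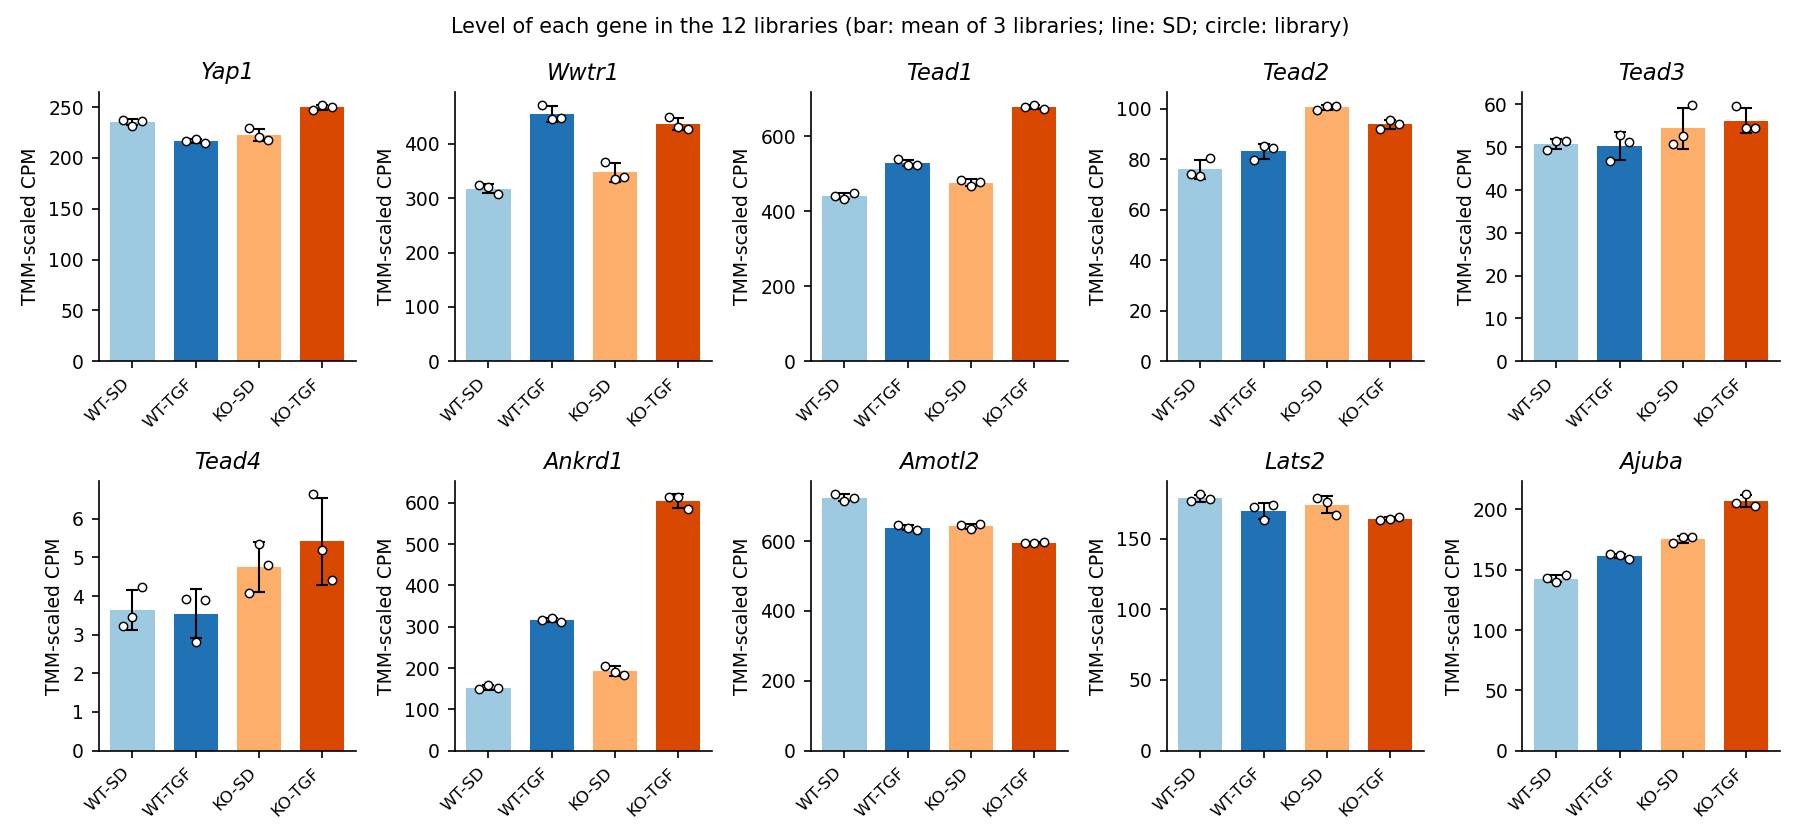
TMM-scaled CPM (counts scaled to library size, vertical axis, each panel from 0 on its own scale) of the 10 genes in the 4 groups. Bars are means of 3 libraries, lines are SDs and circles are libraries. Ankrd1 has the widest range between groups, from 153 CPM in WT-SD to 605 in KO-TGF, and Tead4 the lowest level, from 3.54 to 5.41 CPM.

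Yap1, the gene of the coactivator that the Hippo kinases restrain, fell with TGF-β in WT and, with TMM scaling but not with scaling by library size, rose in KO. It measured 238, 232 and 236 CPM in WT-SD and 217, 219 and 215 in WT-TGF. In KO-SD it was 229, 221 and 218 CPM, and in KO-TGF 248, 252 and 249.8 CPM. From the lowest group mean to the highest, the order was WT-TGF, KO-SD, WT-SD and KO-TGF, and the libraries of the first pair overlapped while the others did not. In WT the level fell by 0.11 on the log2 scale with TGF-β (SE 0.03, adjusted p = 0.00025), and in KO it rose by 0.17 (SE 0.03, adjusted p = 1.3e-06), although with scaling by library size the KO value was -0.04 and did not pass (adjusted p = 0.18). The difference between the responses (the interaction) was 0.28 (SE 0.04, adjusted p = 5.1e-07) and lay between 0.24 and 0.33 under the alternatives tried, all of them past the threshold. An annotated gene on the opposite strand, Gm20416, overlaps Yap1, but the counting used strand.

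Wwtr1, which encodes TAZ, rose with TGF-β in both genotypes. Its libraries measured 325, 321 and 308 CPM in WT-SD and 472, 446 and 447 in WT-TGF. In KO-SD they measured 368, 336 and 339 CPM and in KO-TGF 449.5, 432 and 428 CPM. The untreated groups were below the treated ones, WT-SD was below KO-SD, and WT-TGF and KO-TGF overlapped. The log2 change was 0.52 in WT (SE 0.03, adjusted p = 1.7e-15) and 0.33 in KO (SE 0.03, adjusted p = 6.8e-11). The KO response was smaller by 0.19 on the log2 scale (interaction -0.19, SE 0.04, adjusted p = 0.0014). Per length of exon, Yap1 made up 27.6% ± 0.604 of the summed RPKM of Yap1 and Wwtr1 in WT-SD, 19.8% ± 0.53 in WT-TGF, 24.9% ± 0.47 in KO-SD and 22.8% ± 0.591 in KO-TGF (mean ± SD, n = 3). The size of these shares depends on the length taken. With the longest transcript in place of the union of exons they were 39.7%, 29.8%, 36.3% and 33.7% in the same order of groups. The ranges of these shares did not overlap between WT-SD and WT-TGF or between KO-SD and KO-TGF, and each 2-sided exact permutation test gave p = 0.1, the smallest that 3 against 3 libraries allows.

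Tead1, the most abundant of the TEAD genes here, rose with TGF-β in WT and rose more in KO. It measured 440.3, 432 and 448 CPM in WT-SD and 484, 468 and 477 in KO-SD. In WT-TGF it measured 539, 522 and 524 CPM, and in KO-TGF 677, 683 and 672 CPM. No library of any group overlapped another group, in the order WT-SD, KO-SD, WT-TGF and KO-TGF. The log2 change with TGF-β was 0.26 in WT (SE 0.02, adjusted p = 2.1e-11) and 0.51 in KO (SE 0.02, adjusted p = 1.9e-18), with an interaction of 0.24 (SE 0.03, adjusted p = 9.1e-07).

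Tead2, unlike Tead1, changed in opposite directions in the genotypes, rising in WT with TMM scaling but not with scaling by library size, and falling in KO. The libraries of WT-SD measured 74.3, 73.5 and 80.3 CPM and those of WT-TGF 79.8, 85.4 and 84.4 CPM, with an overlap of 1 library. In KO-SD the values were 99.5, 101 and 101.3 CPM and in KO-TGF 91.9, 95.7 and 93.8 CPM, all of them above every WT library. The log2 change with TGF-β was 0.13 in WT (SE 0.04, adjusted p = 0.003), a value that became -0.03 and did not pass with scaling by library size (adjusted p = 0.51). In KO the level fell by 0.10 on the log2 scale (SE 0.04, adjusted p = 0.016), a call that was lost without KO-TGF replicate 1 (-0.06, adjusted p = 0.17) or without KO-TGF replicate 3 (-0.08, adjusted p = 0.092), with DESeq2's Wald test (-0.08, adjusted p = 0.076) and in a fit of the KO groups alone (-0.08, adjusted p = 0.059). The interaction was -0.23 (SE 0.05, adjusted p = 0.0012). Summed levels of 10 cell cycle genes were highest where Tead2 was, at 448 to 452 CPM in KO-SD against 125 to 145 in WT-SD, 55.1 to 63.7 in WT-TGF and 84.1 to 90.4 in KO-TGF. WT-SD did not follow Tead2, which was lowest there, while the cell cycle sum exceeded that of either TGF-β group. The part of these cell cycle genes in the Tead2 levels was not tested. Cd37 overlaps Tead2 on the opposite strand.

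Tead3 and Tead4 did not pass the test for a TGF-β response in either genotype. Tead3 measured 49.3, 51.5 and 51.4 CPM in WT-SD, 46.8, 53.0 and 51.2 in WT-TGF, 50.9, 52.5 and 59.9 in KO-SD and 59.6, 54.6 and 54.5 in KO-TGF, and neighbouring groups overlapped throughout. The 95% confidence intervals of its log2 change were -0.12 to 0.09 in WT and -0.06 to 0.15 in KO, and without KO-SD replicate 3 the KO value was 0.12 and passed (adjusted p = 0.033). Tead4 had between 63 and 124 counts per library, or 2.81 to 6.64 CPM, and its intervals of -0.39 to 0.30 in WT and -0.12 to 0.50 in KO were wider.

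Together the TEAD genes summed to 56.9 ± 1.5 RPKM in WT-SD, 64.8 ± 0.3 in WT-TGF, 65.5 ± 0.917 in KO-SD and 79.4 ± 0.826 in KO-TGF (mean ± SD, n = 3). These sums rest on TMM scaling and on the union of exons, and no other scaling was tried for them. Scaling by library size moved the median log2 change of all genes with TGF-β by -0.16 in WT and -0.20 in KO. Tead1 accounted for 57.0%, 60.1%, 53.6% and 62.9% of the summed TEAD RPKM in the same order of groups, and Tead2 for 27.9%, 26.8%, 32.1% and 24.7%. Tead3 held 10.5% to 13.3% and Tead4 1.52% to 2.02% as group means. With the longest transcript as the length, Tead1 held 50.4% to 59.8% and Tead3 14.4% to 17.9%. In KO the Tead1 share was 9.32 percentage points higher with TGF-β than without and the Tead2 share 7.38 points lower (difference -7.38), and in WT the differences were 3.08 and -1.09 points. The libraries of the compared groups did not overlap in any of these 4 comparisons (2-sided exact permutation p = 0.1 for each, the smallest possible), except that the Tead2 share in WT overlapped when the longest transcript was taken as the gene length.

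**Figure D2:**
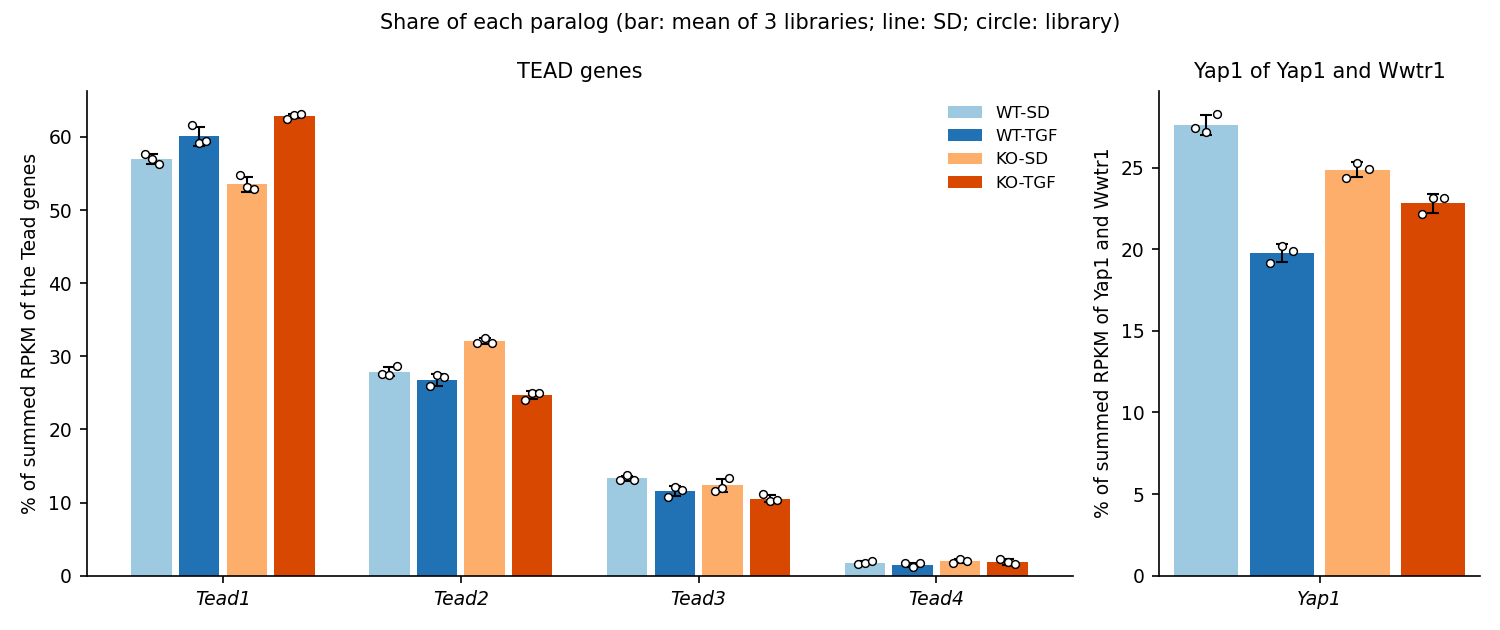
Left, RPKM of each TEAD gene as a percent of the summed RPKM of the TEAD genes; right, RPKM of Yap1 as a percent of Yap1 plus Wwtr1. The length is the union of exons. Both vertical axes start at 0, bars are means of 3 libraries, lines are SDs and circles are libraries. Tead1 holds the greatest share in every group, lowest in KO-SD (53.6%) and highest in KO-TGF (62.9%), and the Yap1 share is lowest in WT-TGF (19.8%).

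Ankrd1, a nuclear ankyrin repeat cofactor that is also found at the sarcomere and is a standard readout of YAP activity, had the strongest response of the 10 genes. It measured 148, 159 and 150.4 CPM in WT-SD and 316, 321 and 312 in WT-TGF. In KO-SD it measured 205, 189.7 and 183 CPM, and in KO-TGF 615, 614 and 586 CPM. The order was WT-SD, KO-SD, WT-TGF and KO-TGF, with no overlap between any of the groups, and the highest group mean was 3.96 times the lowest. The log2 change with TGF-β was 1.05 in WT (SE 0.03, adjusted p = 2.1e-22) and 1.65 in KO (SE 0.03, adjusted p = 7.9e-28), or 2.07-fold and 3.14-fold. With scaling by library size the WT value was 0.89, under 2-fold. The KO response exceeded that of WT by 0.60 on the log2 scale (SE 0.05, adjusted p = 1.4e-11), between 0.56 and 0.66 under the alternatives tried, and 2.15% of all genes tested had a more positive interaction. The summed mesangial and smooth muscle markers given above, mostly Acta2 and Tagln, followed the same order of groups. Tagln alone had that order too, but Acta2 averaged more in KO-SD (3249 CPM) than in WT-TGF (2930), and Des and Pdgfra were lowest in KO-TGF. The part of these markers in the Ankrd1 levels was not tested.

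Ankrd1 was the 1 gene of the 10 whose group means spanned more than 2-fold, and the genes with the most similar profile were therefore sought for it. Among 10069 genes that averaged 5 CPM or more, Pearson's r of log2 CPM over the 12 libraries was highest for Sh3glb1, which encodes an endophilin (0.999), followed by Anxa5, which encodes annexin A5 (0.998), and Nars, which encodes an asparaginyl-tRNA synthetase (0.998). The points of such a correlation fall into the 4 groups and share their libraries, so it describes mainly the relative levels of the 4 group means.

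The feedback inhibitor genes Amotl2 and Lats2 fell slightly with TGF-β. Amotl2, an angiomotin family gene whose product binds YAP at junctions, measured 735, 716 and 723 CPM in WT-SD and 646, 637 and 632 in WT-TGF. It measured 645, 635 and 648 CPM in KO-SD and 594, 594 and 597 in KO-TGF, so that WT-SD was the highest group, KO-TGF the lowest, and WT-TGF and KO-SD overlapped between them. It fell by 0.18 on the log2 scale in WT (SE 0.02, adjusted p = 8.1e-09) and by 0.11 in KO (SE 0.02, adjusted p = 4.2e-05), opposite in direction to Ankrd1. The interaction of 0.07 did not pass (SE 0.03, adjusted p = 0.083), but it did under 6 of 18 alternatives. Among these were DESeq2's size factors (0.10, adjusted p = 0.014) and leaving out KO-SD replicate 1 (0.08, adjusted p = 0.048) or any 1 library of KO-TGF (0.11 each, the highest adjusted p being 0.019 without KO-TGF replicate 3).

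Lats2, the kinase gene, measured 177, 182 and 178 CPM in WT-SD and 173, 163 and 174 in WT-TGF. In KO-SD it measured 179, 176 and 167 CPM and in KO-TGF 163, 164 and 165 CPM, and each group overlapped its neighbour in the order of means. The level fell by 0.07 in WT (SE 0.03, adjusted p = 0.023) and by 0.08 in KO (SE 0.03, adjusted p = 0.012) on the log2 scale. The WT call was lost without WT-SD replicate 2 (-0.06, adjusted p = 0.11) or WT-TGF replicate 2 (-0.05, adjusted p = 0.19), and the KO call without KO-TGF replicate 1 (-0.06, adjusted p = 0.13), 2 (-0.06, adjusted p = 0.10) or 3 (-0.07, adjusted p = 0.072). The WT call was also lost with the CPM filter (-0.06, adjusted p = 0.088) or no filter (-0.04, adjusted p = 0.24), and the KO call with DESeq2's Wald test (-0.07, adjusted p = 0.082) or in a fit of the KO groups alone (-0.06, adjusted p = 0.079). An annotated transcript on the same strand, Gm49361, overlaps Lats2, and reads in the overlap cannot be assigned to either with certainty.

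Ajuba, which encodes a LIM domain protein that binds LATS kinases at cell junctions, was lowest in WT-SD and highest in KO-TGF. It measured 143, 139 and 145 CPM in WT-SD, 163, 162 and 159 in WT-TGF, 172, 177 and 177 in KO-SD and 206, 213 and 203 in KO-TGF, with no overlap between groups. It rose with TGF-β by 0.18 in WT (SE 0.03, adjusted p = 1.2e-06) and by 0.24 in KO (SE 0.03, adjusted p = 3.2e-09) on the log2 scale, but with scaling by library size these were 0.02 (adjusted p = 0.51) and 0.04 (adjusted p = 0.24). The interaction of 0.06 did not pass (95% confidence interval -0.02 to 0.14, adjusted p = 0.28), and without KO-TGF replicate 3 it was 0.11 and passed (adjusted p = 0.048).

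**Figure D3:**
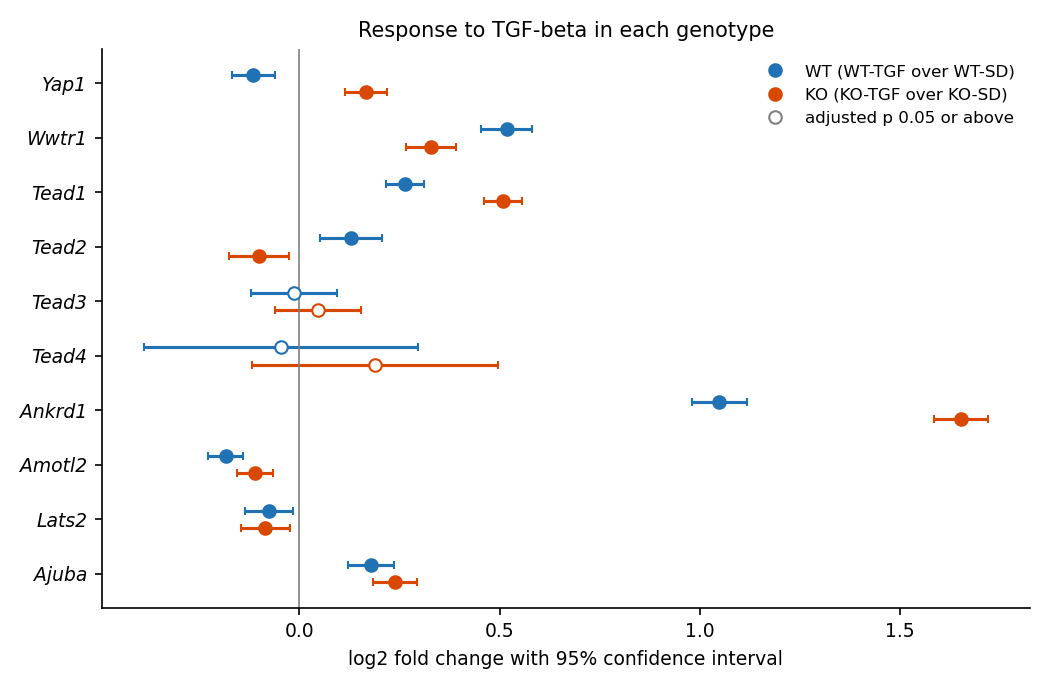
Log2 fold change with TGF-β (horizontal axis, with 95% confidence interval) of each gene in WT (blue) and KO (orange); open circles did not pass an adjusted p of 0.05. Ankrd1 lies apart at 1.05 and 1.65, Yap1 and Tead2 lie on opposite sides of 0 in the genotypes with the TMM scaling plotted (for Yap1 in KO and Tead2 in WT the side changes with scaling by library size), and the intervals of Tead4 are the widest.

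The interaction, which asks whether the response to TGF-β differed between genotypes, passed for 5 of the 10 genes, against 25.3% of all genes tested (8.68% positive and 16.6% negative). It was positive for Yap1, Tead1 and Ankrd1 and negative for Wwtr1 and Tead2, as given above for each, and these 5 calls passed under every alternative tried. Of the calls over all genes, 34.3% were positive (44.3% with DESeq2's size factors and 20.6% with scaling by library size).

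Between the genotypes, most of the 10 genes differed before any TGF-β was given. In SD, 6 genes were higher in KO (Wwtr1, Tead1, Tead2, Tead4, Ankrd1 and Ajuba) and 2 were lower (Yap1 and Amotl2), which is 8 of 10 genes called against 56.1% of all genes (30.9% higher and 25.2% lower). With scaling by library size the calls were 3 higher and 3 lower, the higher ones being Tead2, Ankrd1 and Ajuba and the lower ones Yap1, Amotl2 and Lats2. Under TGF-β, 7 genes were higher in KO (the TEAD genes, Yap1, Ankrd1 and Ajuba) and Amotl2 was lower, against 55.0% of all genes called (27.2% higher and 27.8% lower), and with scaling by library size, which moved the median of all genes by -0.12 here, the split was 5 to 3, Wwtr1 (-0.18) and Lats2 (-0.17) being called lower as well. The median log2 difference of the 10 genes was 0.12 in SD and 0.19 under TGF-β, beside 0.02 and -0.0035 over all genes. The comparisons share libraries with those of TGF-β and are not independent of them.

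Tead2 had the greatest KO to WT difference in SD, at 0.40 on the log2 scale (SE 0.04, adjusted p = 8.9e-11), and under TGF-β its difference was 0.17 (SE 0.04, adjusted p = 0.00025; 0.05 and not passing with scaling by library size, adjusted p = 0.24). Ankrd1 was higher in KO by 0.33 in SD (SE 0.03, adjusted p = 9.7e-10) and by 0.94 under TGF-β (SE 0.03, adjusted p = 2.7e-21), or 1.26-fold and 1.91-fold. Tead1 was higher by 0.11 in SD (SE 0.02, adjusted p = 0.00013; 0.04 with scaling by library size, adjusted p = 0.16) and by 0.36 under TGF-β (SE 0.02, adjusted p = 3.2e-14). Ajuba was higher by 0.30 (SE 0.03, adjusted p = 9.2e-11) and 0.36 (SE 0.03, adjusted p = 1.2e-12). Amotl2 was lower in KO in both media, by -0.17 (SE 0.02, adjusted p = 4.6e-08) and -0.10 (SE 0.02, adjusted p = 0.00025) on the log2 scale.

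Yap1 was lower in KO in SD (-0.08, SE 0.03, adjusted p = 0.012) and higher under TGF-β (0.20, SE 0.03, adjusted p = 8.0e-08). The call in SD was lost without KO-SD replicate 3 (-0.06, adjusted p = 0.067) and with no filter on low values (-0.05, adjusted p = 0.18). Wwtr1 was higher in KO in SD (0.13, SE 0.03, adjusted p = 0.0008; 0.05 and not passing with scaling by library size, adjusted p = 0.15). Under TGF-β it did not pass (-0.06, 95% confidence interval -0.12 to 0.0025, adjusted p = 0.098), though it did without KO-SD replicate 1 (-0.06, adjusted p = 0.027) and in a fit of the TGF-β groups alone (-0.06, adjusted p = 0.023). Tead3 was higher under TGF-β (0.16, SE 0.05, adjusted p = 0.011), which was lost without WT-TGF replicate 1 (0.11, adjusted p = 0.11) or KO-TGF replicate 1 (0.14, adjusted p = 0.056) and with scaling by library size (0.04, adjusted p = 0.55), and in SD it passed only without KO-SD replicate 1 (0.15, adjusted p = 0.011; 0.10, adjusted p = 0.0996 with all libraries) or with no filter on low values (0.13, adjusted p = 0.01).

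Tead4, at fewer than 125 counts a library, measured 3.23, 3.47 and 4.23 CPM in WT-SD and 4.09, 5.36 and 4.82 in KO-SD, with an overlap, and 3.92, 2.81 and 3.90 CPM in WT-TGF against 6.64, 5.19 and 4.41 in KO-TGF, with none. Its difference was 0.38 in SD (SE 0.16, adjusted p = 0.039) and 0.62 under TGF-β (SE 0.16, adjusted p = 0.0016). The call in SD was lost without WT-SD replicate 1 (0.30, adjusted p = 0.15) or 2 (0.35, adjusted p = 0.11), KO-SD replicate 2 (0.29, adjusted p = 0.16) or 3 (0.37, adjusted p = 0.078), or KO-TGF replicate 2 (0.36, adjusted p = 0.059), with scaling by library size (0.31, adjusted p = 0.096) and with DESeq2's Wald test (0.37, adjusted p = 0.084). Lats2 did not pass in SD (-0.04, 95% confidence interval -0.10 to 0.02) or under TGF-β (-0.05, -0.11 to 0.01). It was called lower with scaling by library size in SD (-0.11, adjusted p = 0.000996) and under TGF-β (-0.17, adjusted p = 8.7e-06), and under TGF-β also without WT-TGF replicate 2 (-0.08, adjusted p = 0.042).

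**Figure D4:**
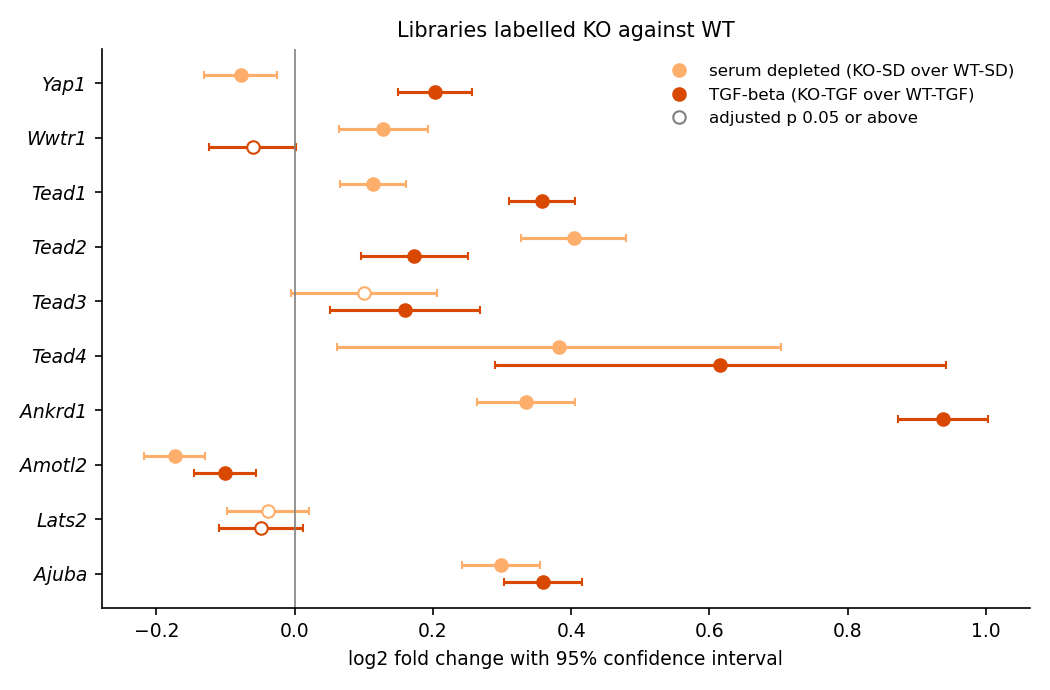
Log2 fold change of KO over WT (horizontal axis, with 95% confidence interval) of each gene in serum-depleted cells (light) and under TGF-β (dark); open circles did not pass an adjusted p of 0.05. Ankrd1 under TGF-β is the farthest from 0 at 0.94, and Yap1 lies below 0 in SD and above 0 under TGF-β.

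The wider target list, 23 genes that include the 4 targets above, held more genes that rose with TGF-β than genes that fell. Like the other lists, it was chosen with earlier results of these data known, so its counts describe the listed genes alone. Leaving out the 4, 18 of the other 19 genes passed the filter, Igfbp3 being the exception. With TGF-β, 12 rose and 6 fell in WT, with a median log2 change of 0.46, and 11 rose and 6 fell in KO, with a median of 0.48, beside medians of all genes near 0 and calls of 36.0% of all genes higher and 36.4% lower in WT and of 34.9% and 39.1% in KO. Past a fold change of 2 were 5 genes in WT and 4 in KO, all upward, beside 4.15% and 4.38% of all genes tested that were past it upward. Ccn2 (connective tissue growth factor) rose on the log2 scale by 2.36 in WT and 2.25 in KO, and Ccn1 by 1.21 and 0.82. Nuak2, an AMPK-related kinase gene, rose by 1.61 and 1.53, Dock5, a guanine nucleotide exchange factor gene, by 1.54 and 2.29, and Gadd45a, a stress-induced gene, by 1.13 and 1.40. The interaction passed for 7 of the 18 upward and 3 downward, against 8.68% and 16.6% of all genes. It was 0.75 for Dock5 (SE 0.05, adjusted p = 2.2e-13) and 0.27 for Gadd45a (SE 0.05, adjusted p = 0.00018), but -0.39 for Ccn1 (SE 0.03, adjusted p = 1.5e-10). Ccn1 and Ankrd1, both rising with TGF-β, thus had interactions of opposite sign. For Ccn2 it was -0.11 (SE 0.04, adjusted p = 0.023), a call lost under 8 of 18 alternatives. Among these were DESeq2's size factors (-0.08, adjusted p = 0.10) and leaving out WT-SD replicate 1, WT-TGF replicate 1, KO-SD replicate 1 or any 1 library of KO-TGF. Without these single libraries it was no larger in size than -0.10 and the adjusted p reached 0.27.

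Between genotypes the target list was split. In SD 6 of the 18 genes were higher in KO and 8 lower, and under TGF-β 7 were higher and 5 lower (5 higher and 11 lower in each with scaling by library size). Of all genes tested, 30.9% were higher and 25.2% lower in SD, and 27.2% and 27.8% under TGF-β. Foxf2, a forkhead factor gene, was the 1 gene past a fold change of 2, which 6.44% of all genes passed in SD and 6.06% under TGF-β. It was 1.13 higher on the log2 scale in SD (SE 0.11, adjusted p = 6.0e-10) and 1.01 under TGF-β (SE 0.10, adjusted p = 5.9e-10), at 4.95 CPM in WT-SD, 10.8 in KO-SD, 7.39 in WT-TGF and 14.9 in KO-TGF.

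**Figure D5:**
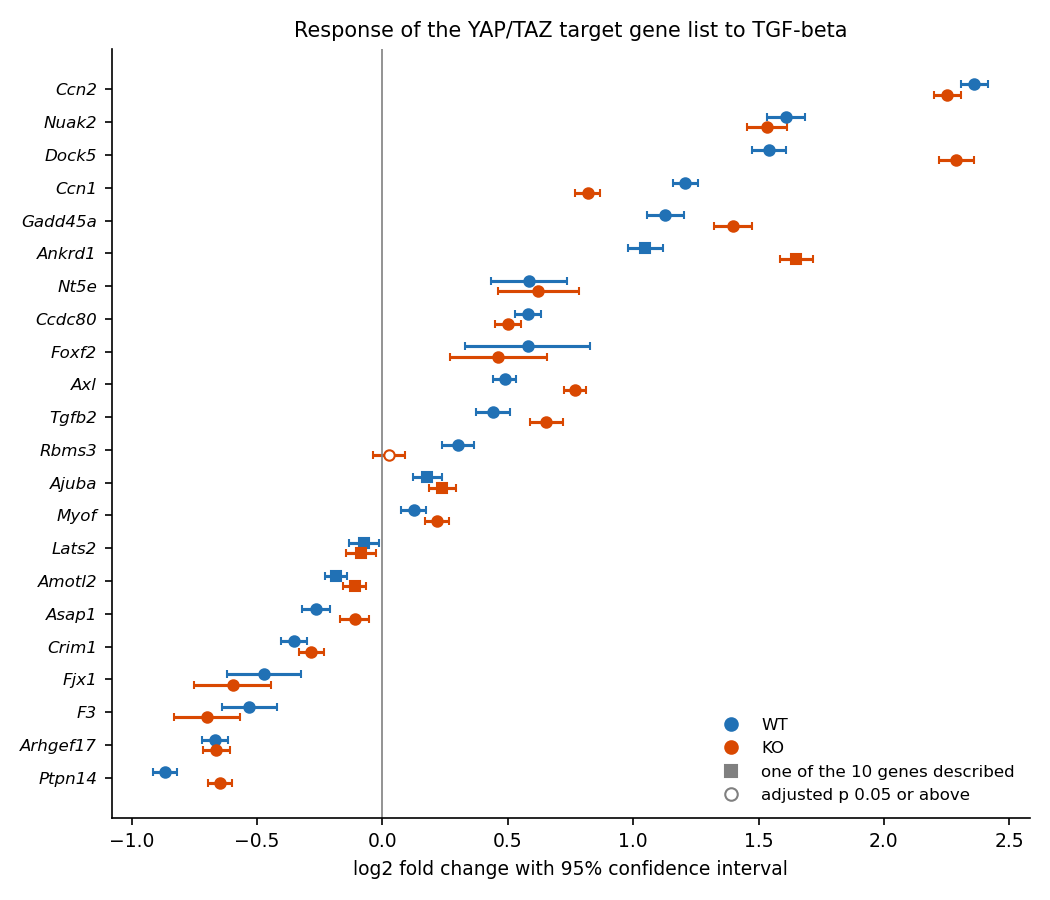
Log2 fold change with TGF-β (horizontal axis, with 95% confidence interval) of the 22 genes of the YAP/TAZ target list that passed the filter, in WT (blue) and KO (orange), ordered by the WT value. Squares mark the 4 targets described singly, and open symbols did not pass an adjusted p of 0.05. The list runs from Ptpn14, the lowest in WT, to Ccn2 at 2.36, with Ankrd1, Dock5 and Gadd45a further right in KO than in WT and Ccn1 further left.

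Upstream of YAP, the genes of the kinase cassette changed by less than 2-fold. Of the 6 genes besides Lats2 (the MST kinase genes Stk3 and Stk4, the scaffold gene Sav1, Lats1, Mob1a and Mob1b), 4 rose and 1 fell with TGF-β in WT and 3 rose and 1 fell in KO. That is 5 and 4 of 6 genes called, near the 72.4% and 74.1% of all genes. The gene that fell was Sav1, named after its values were seen, at 132 CPM in WT-SD against 98.0 in WT-TGF, and 131 in KO-SD against 91.1 in KO-TGF (log2 changes of -0.43 and -0.52). With scaling by library size these became 1 higher and 1 lower in WT and 1 higher and 3 lower in KO. No gene of the cassette passed the interaction by edgeR or by DESeq2's Wald test (0 of 6), and 3 did at an unadjusted p below 0.05 in edgeR.

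Among 24 further regulators that passed the filter, 6 rose and 13 fell with TGF-β in WT and 7 rose and 11 fell in KO (with scaling by library size, 5 rose and 18 fell in WT and 5 rose and 19 fell in KO). Ptpn14, which fell in both genotypes, is counted here and also in the target list. Of all genes, 36.0% rose and 36.4% fell in WT, and 34.9% and 39.1% in KO. Past a fold change of 2 were 3 genes in WT and 4 in KO, all downward, beside 5.79% and 9.16% of all genes tested. Amot, the founding angiomotin gene and a relative of Amotl2, fell from 292 to 121 CPM in WT cells and in KO cells from 261 to 84.8, log2 changes of -1.27 and -1.62. Fat4, an atypical cadherin gene, fell from 341 to 129 CPM in WT cells and in KO cells from 447 to 126 (-1.41 and -1.83). Wwc1, which encodes the LATS-activating scaffold KIBRA, fell from 159 to 58.9 CPM in WT cells and in KO cells from 77.8 to 25.6 (-1.43 and -1.60), and it was lower in KO than in WT both in SD (-1.03, SE 0.03, adjusted p = 5.4e-22) and under TGF-β (-1.20, SE 0.04, adjusted p = 1.2e-20). Map4k2, a kinase gene of the same pathway, changed by -0.75 in WT and -1.06 in KO. Amotl2 fell by far less than Amot, with log2 changes of -0.18 and -0.11. Of the TEAD cofactors other than Yap1 and Wwtr1, Vgll3 and Vgll4 passed the filter. Vgll3, a TEAD-binding vestigial-like gene, rose on the log2 scale by 1.10 in WT and by 1.06 in KO, from 195 to 417 CPM and from 193 to 403 CPM, with an interaction of -0.03 that did not pass (95% confidence interval -0.16 to 0.09). Vgll4 did not rise with it. With TGF-β, Vgll4 was not called in WT and was called lower in KO. It was also lower in KO than in WT in SD and under TGF-β, and its interaction was negative and passed. None of these Vgll4 changes was past 2-fold.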

How the data were processed

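RNA from cultured mesangial cells was made into mRNA libraries (KAPA mRNA HyperPrep) and sequenced as single-end reads. The authors aligned the reads to the mouse genome mm10 with TopHat and counted reads per RefSeq gene with HTSeq-count in its reverse-stranded setting, and the deposited files hold these raw counts, 1 file per library, with no normalization. Reads outside any gene (10.3% to 15.4% of reads), ambiguous reads (0.225% to 0.274%) and reads aligned to several places were left out of library sizes, so genes with close copies can be undercounted. The share of reads outside any gene differed by group. It was 15.2% to 15.4% in WT-SD, 12.7% to 13.4% in KO-SD, 12.2% to 12.5% in WT-TGF and 10.3% to 10.9% in KO-TGF. The part of this difference in the results was not tested.

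Groups were taken from the labels. Genes with RPKM above 1 in at least 1 library were kept (library-size RPKM, length being the union of exons in GENCODE vM21, found for 24708 of 25230 genes), TMM factors were computed and 1 quasi-likelihood model of the 12 libraries with a mean per group was fitted in edgeR 4.0.16 (R 4.3.3), with Benjamini-Hochberg adjustment over 11527 genes and a threshold of 0.05. CPM are TMM-scaled. Shares of RPKM were compared with exact permutation tests. The test was run on simulated data with known answers first.

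The members and gene lists were chosen with earlier results of these data known. The text names the 10 members and, of the other genes on the lists, those past a fold change of 2 in any comparison of 2 groups. Genes named as most alike have the highest Pearson correlation with a member whose group means span over 2-fold. Lists came from general knowledge of the pathway, and are described by counts and medians. Besides those in the report, markers of endothelial cells (8 genes, 34.8 to 35.5 CPM in WT-SD, 25.9 to 26.9 in WT-TGF, 19.2 to 21.1 in KO-SD and 9.98 to 12.2 in KO-TGF) and tubular cells (8 genes, 71.4 to 77.5, 22.1 to 25.4, 18.0 to 18.7 and 12.4 to 13.7 CPM) were summed. Replicates of a group differed by more than counting noise in all 12 pairs (chi-square per degree of freedom 1.35 to 5.41), so none was treated as a copy. Promoter windows came from RefSeq for GRCm38.p6, the assembly of mm10; Tead1 and Tead4 had no window. The alternatives were other scalings, DESeq2 1.42.0, other filters, a fit of just the 2 groups of a contrast, a block for the replicate number and leaving out each library. For the lists they were added after seeing the data.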

Additional observations from a re-analysis of the deposited data

Results flagged for a closer look

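For 13 of the genes named in the report the response to TGF-β differed between the genotypes by the interaction term of edgeR's model (KO response minus WT response, log2 scale). Among the 10 YAP-TEAD genes the differences were 0.28 for Yap1, -0.19 for Wwtr1, 0.24 for Tead1, -0.23 for Tead2 and 0.60 for Ankrd1, with adjusted p from 1.4e-11 (Ankrd1) to 0.0014 (Wwtr1). Among the other YAP/TAZ targets they were 0.75 for Dock5, 0.27 for Gadd45a, -0.39 for Ccn1 and -0.11 for Ccn2. Among the upstream regulators they were -0.42 for Fat4 (adjusted p = 3.7e-09), -0.35 for Amot (adjusted p = 4.5e-07), -0.31 for Map4k2 (adjusted p = 0.027) and -0.17 for Wwc1 (adjusted p = 0.019). The calls of Map4k2 and Wwc1 were lost with DESeq2's Wald test (-0.28, adjusted p = 0.11, and -0.15, adjusted p = 0.12) and without single libraries, where for Map4k2 the adjusted p reached 0.19 (without KO-TGF replicate 1) and for Wwc1 0.16 (without KO-TGF replicate 2). In this model 25.3% of all genes passed the interaction.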

How the results depend on the processing

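Of 940 recomputed values of the 50 member results (10 genes in 5 comparisons), 874 kept their direction and side of the threshold, 30 lost and 18 gained a call, and 18 changed sign, mostly values that did not pass to begin with. The number of members called stayed within 1.5 times its reported value in every comparison, at 7 to 8 and 6 to 9 for TGF-β in WT and KO, 6 to 9 and 7 to 9 for KO against WT in SD and under TGF-β, and 5 to 7 for the interaction. Scaling by library size turned the sign of the log2 value for Tead2 with TGF-β in WT (-0.028), for Yap1 (-0.038), Tead3 (-0.16) and Tead4 (-0.016) with TGF-β in KO, and for Ccn2 (-0.10) and Gadd45a (-0.077) between KO and WT under TGF-β. It moved the share of all calls that were higher from 49.7% to 30.4%, 47.2% to 25.5%, 55.1% to 36.8% and 49.5% to 23.3% in the 4 comparisons of 2 groups, by its own construction.

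Tead3 with TGF-β in WT became 0.0061 with the CPM filter and 0.017 with no filter, Vgll3 between KO and WT in SD 0.0087 with no filter, and the Lats2 interaction 0.018 with DESeq2's size factors and also with its Wald test. Leaving out 1 library at a time gave ranges that crossed 0 for Tead3 (-0.053 to 0.041 in WT and -0.0015 to 0.12 in KO) and Tead4 in WT (-0.12 to 0.10) with TGF-β, for the Lats2 interaction (-0.039 to 0.034), for Vgll3 between genotypes in SD (-0.11 to 0.029) and its interaction (-0.080 to 0.056), and for Fat4 between genotypes under TGF-β (-0.062 to 0.0039). The cause of these was not tested.

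The alternatives for the lists were added after seeing the data. Of the kinase cassette without Lats2, 2 genes were called for TGF-β in WT, 3 for KO against WT in SD, 4 under TGF-β and 2 for the interaction with scaling by library size, where 5, 5, 2 and 0 had been. In SD it was 3 with just the groups compared, and for the interaction 1 with DESeq2's size factors and 1 with no filter. Without single libraries the counts were 3 to 5, 1 to 2 and 0 to 2 for SD, TGF-β and the interaction. Of the 2 other TEAD cofactors tested, 2 were called for TGF-β in WT and 2 for KO against WT under TGF-β with scaling by library size in place of 1, and 1 to 2 without single libraries in SD. With the longest transcript as the length, the Yap1 share differed by -9.88 points with TGF-β in WT, by -3.36 between genotypes in SD and by 3.96 under TGF-β, in place of -7.86, -2.76 and 3.06. With the replicate number as a block, 8, 8, 8, 9 and 5 members were called, the 9 including Wwtr1 under TGF-β (-0.06, adjusted p = 0.026). Same-numbered libraries of different groups correlated at -0.03 to 0.08 in their deviations over 18 pairs, 0 of them above 0.1. The other pairs lay between -0.09 and 0.04, and 10 of 12 libraries correlated best with their own number. Whether the numbers pair the libraries cannot be told from these values.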
